A study of Canis lupus familiaris with 4 samples.

Results

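The genes examined here mark eosinophil recruitment, type 2 immunity and mast cells, and they comprise 4 of the 160 targets of a custom canine NanoString panel. They are *CCL24* (NM_001003967.1), *CCL13* (NM_001003966.1), *CCL17* (NM_001003051.1) and *MS4A2* (NM_001003172.2), chosen by RefSeq transcript for what they encode and each found as 1 target. Archival skin biopsies of 4 dogs were counted. The erythema multiforme (EM) biopsy, labelled case 4, came from a Boxer, a spayed female aged 5 years. The cell poor vasculitis (CPV) biopsy came from a Pomeranian, a spayed female aged 4 years. Pyoderma case 1 was a Golden Retriever, a neutered male aged 7 years, and pyoderma case 2 was a German Shepherd, a neutered male aged 9 years. EM is an interface dermatitis with death of epidermal cells, CPV a disease of small vessels and pyoderma a bacterial infection, and the last 2 stand here as comparatives. EM and CPV are each 1 dog, biopsies were picked from pathology reports, and the labels give neither body site nor treatment. Healthy skin was not analysed here.

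Eosinophils enter skin along chemokines that bind the receptor CCR3. CCL24 is an eotaxin that acts mainly through CCR3, while CCL13, a monocyte chemoattractant protein, binds CCR3 and also CCR2. CCL17 binds CCR4 and draws T helper 2 cells and other skin-homing T cells, and it is known for its association with atopic dermatitis. *MS4A2* encodes the beta chain of the high-affinity IgE receptor, which is carried by mast cells and basophils. Together they cover a ligand arm that attracts cells and a marker of a cell that resides in the dermis.

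Counts over the 160 targets ran from 517282 to 808877 per biopsy, and the positive control probes differed by 1.79-fold between biopsies. Background was set for each biopsy as the mean + 2 SD of its 8 negative control probes and lay between 13.0 and 16.3 counts. Of the 160 targets, 129 (80.6%) exceeded it in every biopsy. Of the 16 counts of the 4 genes (4 genes in 4 biopsies), 15 exceeded it. Normalized counts were obtained by scaling to 3 housekeeping genes (*HPRT1*, *B2M* and *RPL13A*, as a geometric mean), and intervals are 95% limits that cover counting error only.

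*CCL24* was counted 202 times in EM, 43 times in pyoderma case 1, 17 times in pyoderma case 2 and 3 times in CPV. The negative probes of the same biopsies averaged 9.5, 8.75, 11.0 and 7.38 counts. *CCL24* thus stood 21.3 times above the negative probes in EM and 4.91 times above them in pyoderma case 1. In pyoderma case 2 the count lay just over the background of 15.9, and its lower Poisson limit of 9.90 lay under it. In CPV the count exceeded only 1 of the 8 negative probes, so the transcript was not detectable there at this depth. After scaling, EM had 166 normalized counts (144 to 190), pyoderma case 1 had 47.1 (34.1 to 63.5), pyoderma case 2 had 17.6 (10.2 to 28.1) and CPV had 3.33 (0.685 to 9.72). EM was highest and pyoderma case 1 next, with intervals apart from each other and from the rest. Pyoderma case 2 ranked above CPV, but as one count was near background and the other under it, that last step is a rank against an undetected value. EM exceeded pyoderma case 1 by 3.52-fold (2.52 to 5.01) and pyoderma case 2 by 9.44-fold (5.75 to 16.5). The ratio of EM to CPV was 49.9 (16.8 to 244), and it was 9.83 with CPV set at its background. In bulk tissue, fewer cells that make a transcript and less of it per cell cannot be told apart.

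*CCL13* was counted 206 times in EM, 87 times in pyoderma case 1, 29 times in pyoderma case 2 and 18 times in CPV. All of these exceeded background and all 8 negative probes, although the CPV count passed its background of 15.2 with a lower limit of 10.7. Normalized counts were 169 (147 to 194) in EM, 95.3 (76.4 to 118) in pyoderma case 1, 30.0 (20.1 to 43.0) in pyoderma case 2. CPV had the fewest, 19.95 (11.8 to 31.5). Biopsies ranked as they did for *CCL24*. EM lay 1.77-fold (1.37 to 2.31) above pyoderma case 1, and pyoderma case 1 lay 3.18-fold (2.07 to 5.03) above pyoderma case 2. The last step was not resolved, since the ratio of pyoderma case 2 to CPV was 1.50 with limits of 0.806 and 2.87.

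*CCL17* stayed near background everywhere. It was counted 25 times in EM, 17 times in CPV, 18 times in pyoderma case 1 and 30 times in pyoderma case 2. Each count exceeded all 8 negative probes of its biopsy, by 2.06 to 2.73 times their mean, but the lower limit passed background only in pyoderma case 2. Normalized counts were 20.5 in EM, 18.8 in CPV, 19.7 in pyoderma case 1 and 31.0 in pyoderma case 2. None of the 6 pairs of biopsies had separate intervals. The ratio of the highest to the lowest biopsy was 1.64 (0.879 to 3.18), so a difference of up to 3.18-fold between these biopsies lies within counting error.

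*MS4A2*, the mast cell marker, was counted 561 times in pyoderma case 1, 249 times in EM, 221 times in pyoderma case 2 and 44 times in CPV. Every count was far above its background, from 2.89 times in CPV to 43.2 times in pyoderma case 1. Normalized counts were 615 (565 to 668) in pyoderma case 1, 228 (199 to 261) in pyoderma case 2, 204 (180 to 232) in EM and 48.8 (35.4 to 65.5) in CPV. Pyoderma case 1 was highest and CPV lowest, and EM and pyoderma case 2 could not be separated, with a ratio of 1.12 (0.927 to 1.34). The pyoderma biopsies differed from each other by 2.69-fold (2.30 to 3.16), and pyoderma case 1 exceeded CPV by 12.6-fold (9.27 to 17.5).

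**Figure D1:**
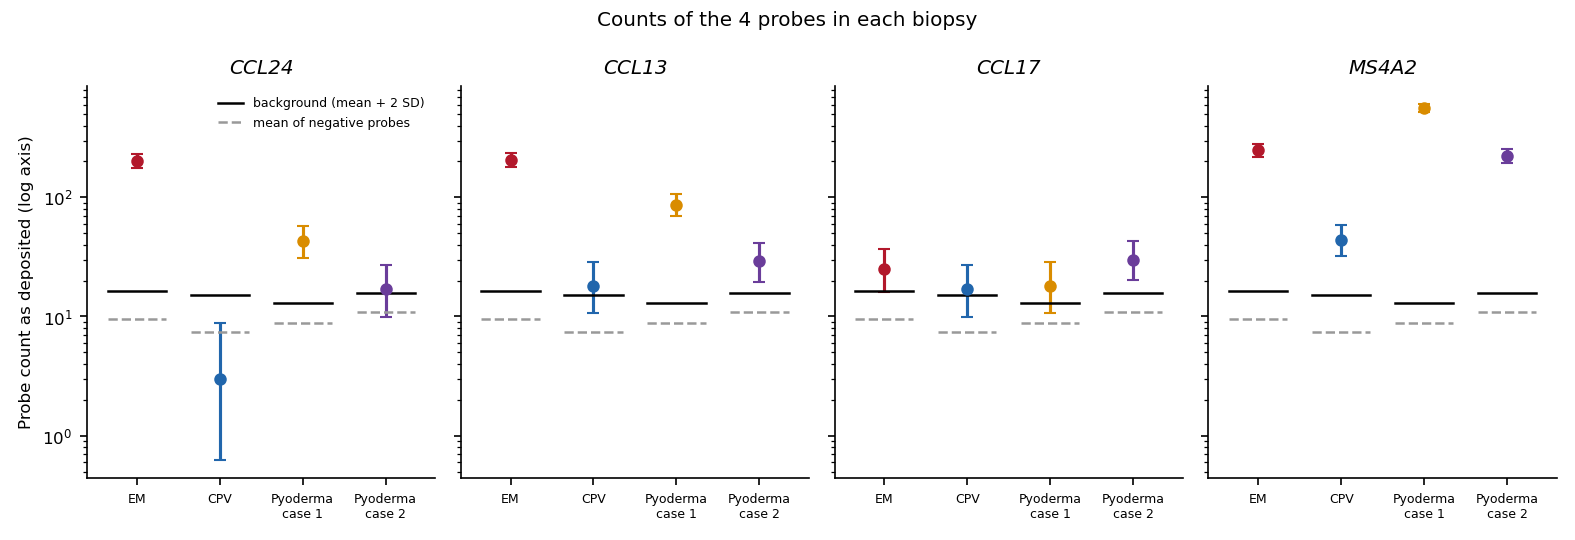
Deposited counts of *CCL24*, *CCL13*, *CCL17* and *MS4A2* on a log axis in the 4 biopsies, with 95% Poisson intervals as bars, background (mean + 2 SD of the 8 negative probes) as a black line and the mean of the negative probes as a dashed grey line. *CCL24* goes from 202 counts in EM to 3 in CPV, *CCL17* sits between 17 and 30 counts just above the black lines, and *MS4A2* is highest in pyoderma case 1 with 561 counts.

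Between the highest and the lowest biopsy, with values under background set to background, *MS4A2* differed 12.6-fold, *CCL24* 9.83-fold and *CCL13* 8.48-fold. The median of the 160 targets was 2.63-fold. By this range *MS4A2* ranked 9, *CCL24* 11, *CCL13* 12 and *CCL17* 131 of the 160 targets. The mast cell marker and both CCR3 ligands thus had some of the widest ranges of the panel. The narrow range of *CCL17* was measured near background, which compresses a fold, so it does not show low variability.

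The next question was whether the CCR3 ligands, the CCR4 ligand and the mast cell marker put the biopsies in a shared order. *CCL24* and *CCL13* ordered all 6 pairs of biopsies alike, and 5 of these pairs had separate intervals for both genes. Over all 12720 pairs of targets, 5.17% ordered all 6 pairs of biopsies alike and the mean was 3.04. Their order was shared by 15 of the 160 targets (9.38%), these genes included. Among the 15 was *RPL13A*, 1 of the 3 housekeeping genes used for scaling, with every step separate. *RPL13A* had 16440 normalized counts in EM and 8667 in CPV. The order of *CCL24* and *CCL13* was the same under all 9 scalings compared. *MS4A2* ordered 4 of 6 pairs as each CCR3 ligand did, and 40.0% of target pairs had at least 4 pairs alike. The order of *MS4A2* was found in 5.0% of targets and held under 5 of 9 scalings. Under the other 4, among them the counts as deposited, EM ranked above pyoderma case 2, and 5 of 6 pairs were then alike with each CCR3 ligand. The difference lay between EM and the pyoderma biopsies. Pyoderma case 1 exceeded EM by 3.01-fold (2.59 to 3.50) for *MS4A2*, while EM exceeded pyoderma case 1 for *CCL24* and *CCL13*. *CCL17* likewise had 4 of 6 pairs alike with each of the other genes, and 9.38% of targets had its order, which held under 4 of 9 scalings, but none of its pairs was resolved.

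All 4 genes together put 3 of the 6 pairs of biopsies in the same order. These were the 3 pairs that include CPV, which had the lowest normalized count of each gene. CPV was lowest for 31.9% of all targets. Without CPV no pair was shared by all 4 genes. CPV was lowest for *CCL24*, *CCL13* and *MS4A2* under all 9 scalings but for *CCL17* under 5, pyoderma case 1 being lowest under the other 4. The highest biopsy did not change with the scaling. It was pyoderma case 1 for *MS4A2* (as for 25.0% of targets), EM for *CCL24* and *CCL13* (21.2%) and pyoderma case 2 for *CCL17* (26.9%). No correlation was computed, because 4 biopsies are too few.

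**Figure D2:**
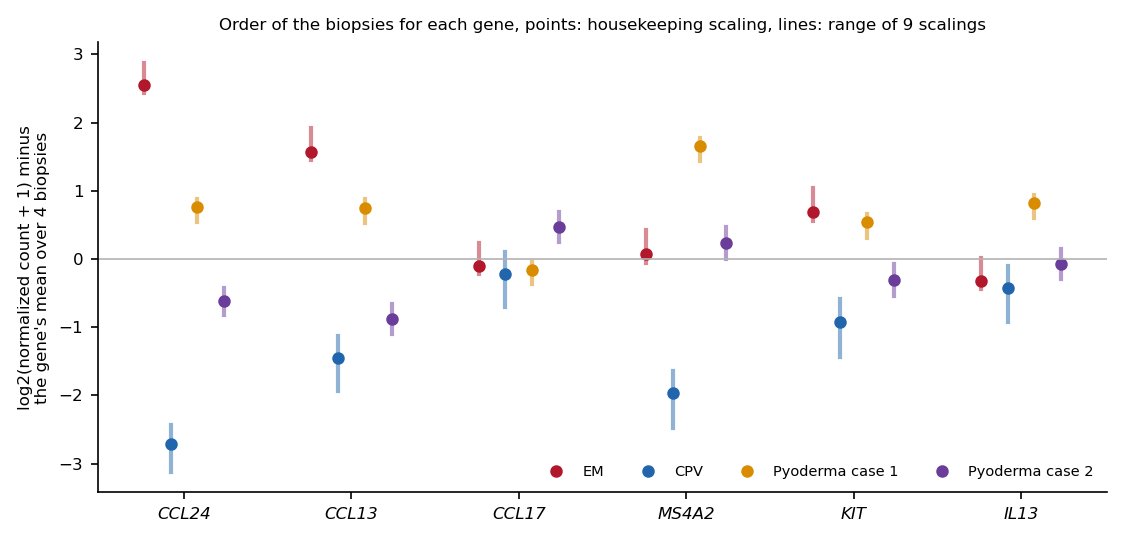
Log2(normalized count + 1) of each gene minus its mean over the 4 biopsies, with housekeeping scaling as points and the range over 9 scalings as lines. *CCL24* and *CCL13* run from EM down to CPV in one order, *MS4A2* and *IL13* peak in pyoderma case 1, and the *CCL17* lines of EM, CPV and pyoderma case 1 overlap.

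Transcripts of structural skin cells also varied between the biopsies. *COL1A1*, a collagen gene of dermal fibroblasts, had 4310 normalized counts in CPV and from 44948 to 138520 in the others. Summed over 4 keratinocyte markers, normalized counts were 282853 in CPV and 79221 to 211040 in the others. The keratins *KRT1*, *KRT5* and *KRT14* made up most of this sum and were highest in CPV, whereas *KLK7*, a protease of the outer epidermis, had 3252 normalized counts in CPV against 3143 to 9312 in the others. None of the 4 passed the threshold for CPV against the other biopsies. Set against *COL1A1* of the same biopsy, a choice made after the values were seen, CPV was no longer lowest for any of the 4 genes and pyoderma case 2 was lowest for all of them. *COL1A1* itself was counted 3888 times in CPV and 134056 times in pyoderma case 2, so dividing by it raises CPV against pyoderma case 2 for any gene. The place of CPV for *CCL24* rests on 3 counts under background, and *CCL17* was near background throughout. *MS4A2* then had 13.7 counts per 1000 *COL1A1* counts in pyoderma case 1, 11.3 in CPV, 2.95 in EM and 1.65 in pyoderma case 2. *CCL13* had 4.63 per 1000 in CPV, 2.44 in EM, 2.12 in pyoderma case 1 and 0.216 in pyoderma case 2. Set against *KRT14*, a basal keratinocyte gene counted 78274 times in CPV and 12607 to 38559 times in the others, CPV was lowest for all 4 genes. That outcome was fixed in advance, since CPV was already lowest for each gene after scaling and *KRT14* was highest there. *CCL24* was highest in EM against either reference, with 2.40 counts per 1000 *COL1A1* counts and 9.28 per 1000 *KRT14* counts. The part of *COL1A1* and keratinocyte RNA in the low CPV values was not tested.

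The disease labels imply 3 groupings of the biopsies, and each was tested by edgeR's quasi-likelihood test over the 160 targets with Benjamini-Hochberg adjustment. They share biopsies, so their values are set side by side and not counted as separate evidence. A group of 1 dog was assumed to vary like the others. An exact permutation test over biopsies cannot go below p = 0.25 for 1 dog against 3, or p = 0.167 for 2 against 2 (one-sided).

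For EM against the 3 comparatives, none of the 4 genes passed the threshold, and neither did any other target (0.0%), while 6 targets (3.75%) had an unadjusted p under 0.05 and DESeq2 gave 0 adjusted calls. EM had 166 normalized counts of *CCL24* and the comparatives 22.7 ± 22.3 (SD, n = 3), a log2 fold change of 2.86 with a standard error of 1.03 and an adjusted p of 0.714. For *CCL13* the values were 169 and 48.4 ± 40.9 (SD, n = 3), a log2 fold change of 1.80 (standard error 0.92). *MS4A2*, with 204 against 297 ± 289 (SD, n = 3), and *CCL17*, with 20.5 against 23.2 ± 6.78, lay within the range of the comparatives. Without pyoderma case 1 the log2 fold change of *MS4A2* turned from −0.54 to 0.56, and that of *CCL17* took either sign with the scaling. EM lay above all comparatives for *CCL24* and *CCL13*, as it did for 21.2% of all targets. The median log2 fold change was 0.81 over the 4 genes and −0.30 over all targets. The call for *CCL24* turned on the model, since with EM, CPV and pyoderma fitted as 3 groups its log2 fold change was 3.43 and it passed the threshold. In that fit EM and CPV are 1 biopsy each, so only the 2 pyoderma biopsies give a spread of their own.

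For CPV against the other 3 biopsies, CPV lay below all others for each of the 4 genes, as it did for 31.9% of targets. None of the 4 passed the threshold, while 3.12% of targets did. *CCL24* came nearest, with 3.33 normalized counts in CPV and 76.9 ± 78.5 (SD, n = 3) in the others, a log2 fold change of −4.49 with a standard error of 1.49 and an adjusted p of 0.0746. *MS4A2* had 48.8 against 349 ± 230 (SD, n = 3), a log2 fold change of −2.84 with a standard error of 1.08 and an adjusted p of 0.136. *CCL13* had a log2 fold change of −2.29 (adjusted p = 0.508) and *CCL17* one of −0.33 (adjusted p = 0.914). The median over the 4 genes was −2.56, against −0.24 over all targets. *CCL24* passed the threshold without pyoderma case 1 (log2 fold change −4.74, adjusted p = 0.0275) and after subtraction of the mean of the negative probes, which sets its CPV count to 0.

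For pyoderma against EM and CPV, *MS4A2* was higher in both pyoderma biopsies after housekeeping scaling, with 422 ± 273 (SD, n = 2) against 127 ± 110 (SD, n = 2) normalized counts. Both pyoderma biopsies lay above both others for 18.8% of all targets. The log2 fold change of *MS4A2* was 1.73, with a standard error of 0.80 and an adjusted p of 0.589, and none of the 4 genes passed the threshold, against 0.625% of targets. The separation depended on the scaling. EM exceeded pyoderma case 2 under 4 of 9 scalings, as in the deposited counts of 249 and 221. Their intervals overlapped, and without pyoderma case 1 the log2 fold change of *MS4A2* was 0.85. For *CCL24* the pyoderma biopsies fell between EM and CPV, so the sign depended on the summary. The fitted log2 fold change was −1.39, the difference of mean log2 values was 0.15, and without EM the fitted value was 3.23. The fitted value of *CCL13*, −0.60, likewise turned to 1.64 without EM. Both pyoderma dogs were neutered males, aged 7 and 9 years, and the others spayed females, aged 5 and 4 years. Disease, sex and age thus cannot be told apart in this comparison.

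**Figure D3:**
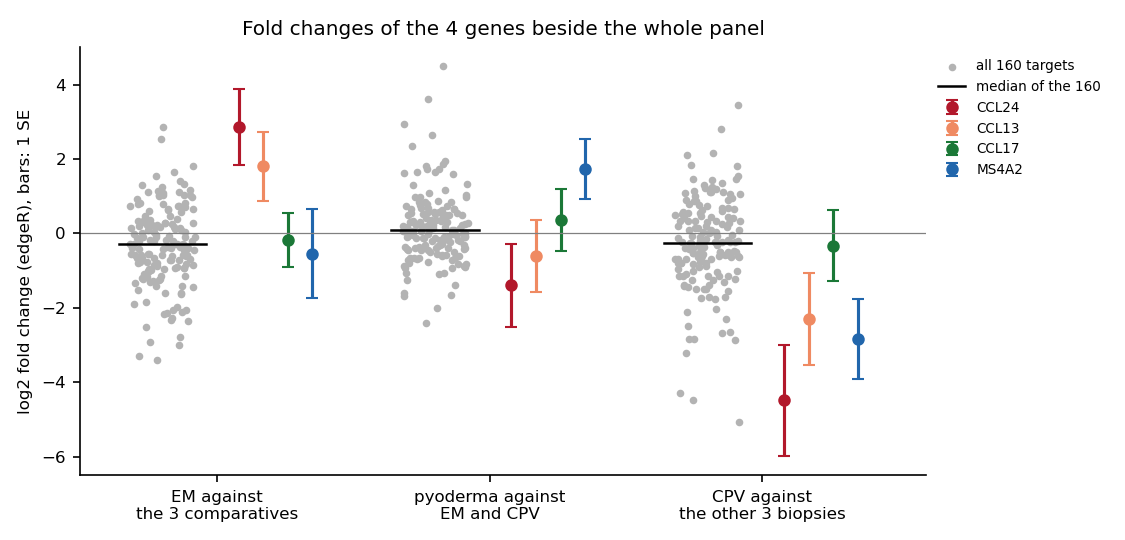
Log2 fold changes from edgeR for the 4 genes (coloured, bars of 1 standard error) beside all 160 targets (grey, median as a black line) in 3 groupings of the same 4 biopsies. *CCL24* lies at 2.86 for EM and at −4.49 for CPV, *MS4A2* at 1.73 for pyoderma, and *CCL17* stays within 0.4 of 0 in each.

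The other CCR3 ligands on the panel had several orders. In the dog annotation *CCL24* lies next to *CCL26*, another eotaxin gene. *CCL26* was counted 29 times in EM, 37 times in CPV, 39 times in pyoderma case 1 and 31 times in pyoderma case 2. Its normalized intervals overlapped between neighbours in its order, and EM was lowest. Pyoderma case 1 exceeded EM by 1.79-fold (1.08 to 3.01) and CPV exceeded EM by 1.72-fold (1.03 to 2.90). For pyoderma case 2 over EM the ratio was 1.34 (0.784 to 2.31). *CCL24* took 87.4% (82.5 to 91.4, exact binomial interval) of the counts of both probes in EM, 52.4% (41.1 to 63.6) in pyoderma case 1, 35.4% (22.2 to 50.5) in pyoderma case 2. No share is given for CPV, where *CCL24* was under background. Shares do not depend on scaling but include background counts, which weigh most where both probes are near background, and they are not compared between genes, since probes differ in efficiency. Cross-hybridization between members of the chemokine family was not tested.

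*CCL13* lies in a cluster with *CCL1* and with *CCL8*, *CCL7* and *CCL2*, genes of monocyte chemoattractants. *CCL7* had 290 normalized counts in CPV, 217 in pyoderma case 2, 111 in pyoderma case 1 and 25.5 in EM, the reverse of the order of *CCL13* and of *CCL24*. *CCL13* accordingly took 86.9% (82.0 to 90.9) of the counts of *CCL13* and *CCL7* in EM, 46.3% (39.0 to 53.7) in pyoderma case 1, 12.1% (8.28 to 17.0) in pyoderma case 2 but 6.43% (3.85 to 9.97) in CPV, where *CCL13* was near background. *CCL8* and *CCL2* were also lowest in EM, with 342 and 1541 normalized counts. *CCL8* shared 1 of 6 pairs of biopsies with the order of *CCL13*, and *CCL2* shared 2. *CCL1*, like *CCL8* a direct neighbour of *CCL13*, shared 4 and was not lowest in EM. It was counted 13 times in EM and 4 times in CPV, both under background, and 24 and 21 times in pyoderma cases 1 and 2. The CCR3 ligands listed besides *CCL24* and *CCL13* include *CCL5* and *CCL28*. *CCL5*, which attracts T cells as well as eosinophils, was highest in EM with 3006 normalized counts, and 5 of 6 pairs lay in the order of *CCL24*. *CCL28*, a chemokine of epithelia, was lowest in EM with 38.6. The balance between *CCL24* and *CCL13* themselves also varied. *CCL24* took 49.5% (44.6 to 54.5) of their counts in EM and 33.1% (25.1 to 41.9) in pyoderma case 1, and the interval of pyoderma case 2 (23.2 to 52.5) was wide.

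**Figure D4:**
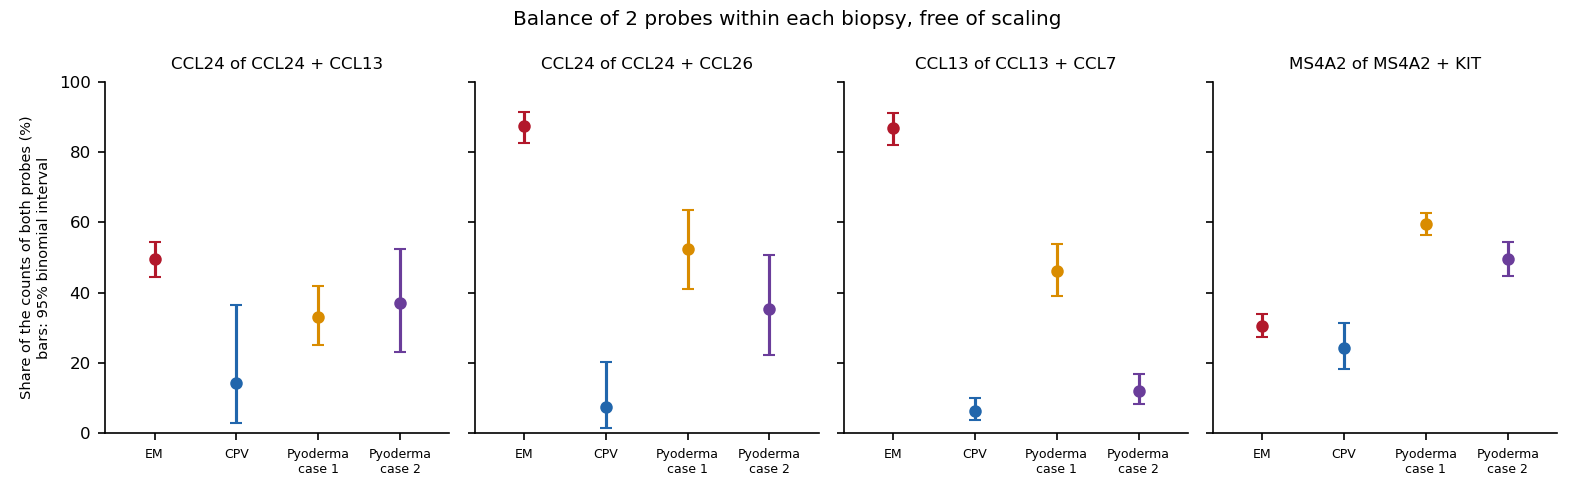
Share of the first probe in the summed deposited counts of 2 probes within a biopsy, in percent with 95% exact binomial intervals, which no scaling factor can move. *CCL24* against *CCL26* and *CCL13* against *CCL7* are highest in EM, at 87.4% and 86.9%, the CPV values of *CCL24* resting on 3 counts that lie under background, while *MS4A2* against *KIT* is highest in pyoderma case 1 at 59.5%.

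Of 46 further genes listed for eosinophil, type 2 and mast cell biology, 8 were among the 72 targets with a symbol, and none of the 8 passed the threshold in any of the 3 comparisons, with adjusted p from 0.642 to 0.995. Besides the CCR3 ligands above these were *IL4*, *IL13* and *KIT*. *IL4*, the cytokine that drives T helper 2 differentiation, was counted 7, 4, 7 and 4 times in EM, CPV, pyoderma case 1 and pyoderma case 2, within background in all of them. *IL13*, which acts on epithelium through a receptor shared with IL4, was counted 38 times in EM, 26 times in CPV, 64 times in pyoderma case 1 and 36 times in pyoderma case 2, above background in each. Its order matched that of *MS4A2* on all 6 pairs of biopsies, and pyoderma case 1, with 70.1 normalized counts (54.0 to 89.6), was separate from pyoderma case 2 with 37.2 (26.1 to 51.5). The other neighbours in that order overlapped. No symbol among the named targets belonged to the listed eosinophil granule genes or chemokine receptors.

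*KIT*, the receptor for stem cell factor on mast cells and melanocytes, was the one other listed mast cell gene among the named targets, and 88 targets had no symbol. It had 466 normalized counts in EM, 419 in pyoderma case 1, 232 in pyoderma case 2 and 152 in CPV. CPV was lowest, as for *MS4A2*, but EM was not below pyoderma case 1, and by rank the order of *KIT* was that of *CCL24* and *CCL13*. The first step was not resolved, since the ratio of EM to pyoderma case 1 for *KIT* was 1.11 (0.975 to 1.27). *MS4A2* took 59.5% (56.3 to 62.6) of the counts of both probes in pyoderma case 1, 49.6% (44.8 to 54.3) in pyoderma case 2, 30.5% (27.4 to 33.8) in EM and 24.3% (18.3 to 31.2) in CPV. The melanocyte markers *DCT*, *TYR* and *MC1R* summed to 408 normalized counts in EM and to 83.7 to 133 in the others, and their part in the *KIT* value of EM was not tested.

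Likeness of pattern was measured as the Euclidean distance between log2 values centred over the 4 biopsies, among targets with a symbol and at least 50 counts in a biopsy. For *CCL24* the nearest of 57 such targets was *CCL13* (distance 1.62), then *PPARG* (2.31), a nuclear receptor of lipid metabolism, and *CCL27* (2.61), a keratinocyte chemokine, where the median distance was 4.02. For *CCL13* the nearest were *PPARG* (0.78), *CCL27* (1.06) and the adrenergic receptor gene *ADRB1* (1.19). For *MS4A2* they were *CCL21* (0.84), a chemokine of lymphatic vessels, then *KIT* (1.74) and *CCL20* (1.75), and the median was 2.64. For *CCL17*, near background, they were *CXCL12* (0.42), *SELPLG* (0.54) and *HSP70* (0.60). In CPV *CCL27* was counted 15 times and *ADRB1* 16 times against a background of 15.2. Their likeness to *CCL24* or *CCL13* in that biopsy is thus between values near background.

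Markers of infiltrating cells had other orders. *CEACAM1* is listed for neutrophils, *KLRD1* for cytotoxic cells, and *CD163* and *CD86* for macrophages and dendritic cells. By rank, each had the reverse order of *CCL24*, highest in CPV and lowest in EM. Every step was separate for *CEACAM1* and *CD86*. *CD86* had 1262 normalized counts in CPV, 869 in pyoderma case 2, 676 in pyoderma case 1 and 474 in EM. For *KLRD1* the intervals of CPV (97.6) and pyoderma case 2 (94.0) overlapped, as did those of pyoderma case 1 (55.9) and EM (46.8). For *CD163* those of pyoderma case 1 (597) and EM (571) overlapped. *CEACAM1* had 2083 normalized counts in CPV, 1005 in pyoderma case 2, 837 in pyoderma case 1 and 315 in EM. Whether these counts came from neutrophils or from other cells was not tested. *MS4A1*, a B cell gene, ran from 54.8 normalized counts in pyoderma case 2 to 122 in pyoderma case 1. Each of these cell types rests on 1 or 2 markers among the named targets, none of which passed the threshold, and the listed T cell and endothelial markers were not among them.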

How the data were processed

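RNA from sections of formalin-fixed, paraffin-embedded skin was hybridized to a custom NanoString nCounter panel and read on a Sprint instrument. The authors deposited raw whole-number counts of each probe, without scaling. Groups came from the sample labels, since the series' design text names other diagnoses. The 6 positive and 8 negative ERCC control probes were told apart by their known NanoString design. Targets were named through a RefSeq gene table of UU_Cfam_GSD_1.0, used for names and gene order only, which paired 72 of 160.

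Factors that multiply the counts, from *HPRT1*, *B2M* and *RPL13A*, were 0.821 (EM), 1.11 (CPV), 1.10 (pyoderma case 1) and 1.03 (pyoderma case 2). The fourth housekeeping gene of the methods, *CCZ1*, was not paired with a target. Tests used edgeR 4.0.16 (R 4.3.3) on the deposited counts with no filter and a threshold of 0.05 after Benjamini-Hochberg adjustment, with DESeq2 1.42.0 as an alternative. Standard errors are the log2 fold change over the root of the F statistic. The code was tested on simulated data. Log2 values had a pseudocount of 1. Other values and plots were made in Python 3.11.15 with scipy 1.17.1, pandas 2.3.3, matplotlib 3.10.9 and numpy 2.4.6. Named are the 4 genes, the housekeeping genes, listed pathway and marker genes with a target, and the 3 nearest patterns per gene. *CCL1*, *CCL2* and the comparisons with *COL1A1* and *KRT14* were added after their values were seen. The genes and lists were chosen with earlier results of these data known.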

Additional observations from a re-analysis of the deposited data

How the results depend on the processing

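No paired analysis was possible, since each biopsy came from a different dog and the case numbers do not link dogs between groups. Of 199 fitted log2 fold changes of the 4 genes under alternatives, 184 kept their direction and their side of the threshold, 3 passed it newly (all *CCL24*, given above) and 12 changed sign without passing it. The filter on targets with at least 20 counts in all biopsies removed *CCL24*, *CCL13* and *CCL17* and so gave no value for them. The cause of the changes below was not tested.

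For EM against the comparatives, *CCL17* turned to 0.13 with *RPL13A* left out of the scaling, 0.21 with panel totals, 0.21 with counts as deposited and 0.0797 with TMM. With 1 biopsy left out at a time it ranged from −0.30 to 0.0897 and *MS4A2* from −1.04 to 0.56. For pyoderma, *CCL24* turned to 0.44 and *CCL13* to 0.11 with 3 groups in 1 fit, and with 1 biopsy left out they ranged from −2.36 to 3.23 and from −1.66 to 1.64. *CCL13* was 0.0073 without pyoderma case 2. For CPV, *CCL17* turned to 0.12 with positive control scaling.

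Targets called for EM against the comparatives numbered 1 with 3 groups in 1 fit and from 0 to 2 with 1 biopsy left out, the 2 arising without CPV. For pyoderma, 1 call became 0 with *B2M* or *RPL13A* left out of the scaling, with panel totals, counts as deposited, median of ratios or TMM, and with either filter on low counts. It became 4 without *HPRT1* in the scaling or with 3 groups in 1 fit, 3 with positive control scaling or DESeq2, and 1 to 3 with 1 biopsy left out. Leaving out pyoderma case 1 gave the 3, and leaving out CPV or pyoderma case 2 gave 2. For CPV, 5 calls became 3 without *HPRT1* in the scaling or with 3 groups, 1 with median of ratios or DESeq2, 0 with panel totals, counts as deposited or TMM, and 1 to 5 with 1 biopsy left out, the 1 arising without EM. The 3 pairs of biopsies that all 4 genes put in the same order became 1 with *B2M* left out of the scaling or with positive control scaling, 2 with median of ratios, TMM or the negative probe mean subtracted, 4 without *CCL17* or without *MS4A2*, and 0 to 2 with 1 biopsy left out, the 0 arising without CPV, an alternative chosen after seeing the data.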
